A study of Mus musculus with 22 samples.

Results

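The C/EBPβ sites described here were found in BV2 cells with a mutant huntingtin fragment and in neither control. They are the peaks of the Nmu file that overlapped no peak of the Nwt or pCDH file by 1 bp or more. The rule kept 6494 of the 47893 Nmu peaks (13.6%), out of 80260 regions when the C/EBPβ peaks of the 3 files were merged. The gained sites were thus selected on their C/EBPβ peak calls, so their number and their C/EBPβ signal are a description with no test. Gained means missing from the deposited control lists, not free of signal in the control cells.

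BV2 is a line of mouse microglia, the macrophages of the brain, that grows in culture. Nmu cells carried, from a lentivirus, an N-terminal piece of human huntingtin with 128 glutamines, the expanded tract of Huntington's disease. Nwt cells carried the same piece with 15 glutamines, and pCDH cells the empty vector. All 3 lines were untreated and shared the CMV promoter of the vector, and the labels do not say how many independent transductions there were. Each of the 4 antibodies (against C/EBPβ, C/EBPα, PU.1 and H3K4me2) had 1 library per construct, so no chromatin comparison has a replicate. The labels give 24 h for all of these chromatin libraries. RNA came from 2 libraries per construct, one at 24 h and one at a second time that the labels give as 48 h and the header of the expression table as 6 h. Only the RNA libraries of 24 h thus match the chromatin in time. A further 4 primary-cell RNA libraries came from Microglia_mu and BMDM_mu (175 glutamines in both huntingtin alleles) and from Microglia_wt and BMDM_wt (7 glutamines), where BMDM are bone marrow derived macrophages.

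C/EBPβ is a basic leucine zipper factor of myeloid cells that binds DNA as a dimer and takes part in inflammatory and metabolic gene control. PU.1, encoded by Spi1, marks out the enhancers of macrophages and microglia, and C/EBPα is a related factor with a similar DNA preference. H3K4me2 is a histone mark of promoters and enhancers.

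The 3 C/EBPβ libraries were unequal before any comparison. Per the file headers, the Nmu library held 13.6 M tags, against 17.69 M in the Nwt and 17.52 M in the pCDH library. The share of tags in peaks was 24.31% in Nmu, 23.02% in Nwt and 8.09% in pCDH cells, and the number of tags a peak needed was 6 in Nmu, 7 in Nwt and 8 in pCDH cells. The pCDH library thus stood apart, with 35964 peaks, while Nmu had 47893 and Nwt 69522. With the Nwt list alone as control, 7434 Nmu peaks counted as gained, and with the pCDH list alone 19569 did. The part of depth and enrichment in the number of gained sites was not tested. In RNA, the summed level of 8 microglia and macrophage markers was 592 to 834 RPKM (reads scaled to transcript length and library size) in Nmu, 529 to 658 RPKM in Nwt and 444 to 732 RPKM in pCDH libraries. The summed granulocyte markers reached 4.18 RPKM at most in Nmu, 1.22 RPKM in Nwt and 2.74 RPKM in pCDH libraries, and the 3 neuron markers were listed at 0 in Nmu and pCDH cells and at 0.016 RPKM or less in Nwt cells.

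The peak coordinates are on mm9, and no genome of that build was used here, so the bases under the gained sites are not shown. Promoters stand in for them where a gained site lay over or beside a gene's start. In the mm9 coordinates of the expression table, 549 genes had a gained site over the stretch of 250 bases before to 50 bases after a start, and 334 of them had a single promoter sequence in RefSeq (GRCm38.p6). Among these genes 5 passed a test or a size rule described below, and RefSeq sequences were at hand for Nr4a1, Rgcc and Slc31a2 but not for Atp6v0d2 and Fabp4. The gained site lay from 98 bases before to 46 bases after the Nr4a1 start, from 107 before to 37 after the Slc31a2 start, and from 1 to 145 bases inside Rgcc. The promoters of these 3 genes are shown because a gained site lay over or beside their starts and they met that test or size rule. They are on GRCm38.p6 at chr15:101266596-101266895 (plus strand), chr14:79301586-79301885 (minus strand) and chr4:62286179-62286478 (plus strand), for Nr4a1, Rgcc and Slc31a2 in that order.
Nr4a1: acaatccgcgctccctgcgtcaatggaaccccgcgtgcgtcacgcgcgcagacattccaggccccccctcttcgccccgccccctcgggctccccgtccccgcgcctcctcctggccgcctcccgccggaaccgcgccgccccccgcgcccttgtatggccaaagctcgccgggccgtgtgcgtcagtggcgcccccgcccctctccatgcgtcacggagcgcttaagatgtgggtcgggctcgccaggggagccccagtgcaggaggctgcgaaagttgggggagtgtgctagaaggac
Rgcc: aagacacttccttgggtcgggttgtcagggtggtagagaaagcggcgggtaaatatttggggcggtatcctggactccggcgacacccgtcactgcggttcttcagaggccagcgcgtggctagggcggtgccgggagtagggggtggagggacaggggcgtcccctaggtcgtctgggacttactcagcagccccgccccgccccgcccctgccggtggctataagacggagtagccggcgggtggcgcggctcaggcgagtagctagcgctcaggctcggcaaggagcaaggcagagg
Slc31a2: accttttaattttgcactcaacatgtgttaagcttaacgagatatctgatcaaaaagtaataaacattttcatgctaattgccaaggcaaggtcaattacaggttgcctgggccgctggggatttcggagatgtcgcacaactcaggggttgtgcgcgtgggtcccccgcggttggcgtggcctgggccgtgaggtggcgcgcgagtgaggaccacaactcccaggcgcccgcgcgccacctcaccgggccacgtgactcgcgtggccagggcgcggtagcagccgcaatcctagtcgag
None of these 300 bases held, on either strand, the C/EBP letters TTGCNNAA, the composite TTGCATCA of C/EBP with ATF factors, the PU.1 letters GAGGAAGT or the AP-1 letters TGANTCA, nor an NF-kB motif.

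Of the 334 promoters that a gained site overlapped, 27 held TTGCNNAA (8.08%). Among the 23 of these whose RNA could be tested, the 3 with the largest RNA difference in either direction are Fam167b, Cyp20a1 and Chd1l, and none of them passed a test. Capitals mark the C/EBP letters in the promoters of Fam167b (chr4:129578531-129578830, minus strand), Cyp20a1 (chr1:60343050-60343349, plus strand) and Chd1l (chr3:97610141-97610440, minus strand), again on GRCm38.p6.
Fam167b: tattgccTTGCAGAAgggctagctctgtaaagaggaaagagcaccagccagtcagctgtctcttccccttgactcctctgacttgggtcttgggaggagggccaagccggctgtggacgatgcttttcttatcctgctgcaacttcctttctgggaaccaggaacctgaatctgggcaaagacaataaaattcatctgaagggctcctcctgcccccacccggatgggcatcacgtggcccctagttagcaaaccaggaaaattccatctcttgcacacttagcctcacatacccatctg
Cyp20a1: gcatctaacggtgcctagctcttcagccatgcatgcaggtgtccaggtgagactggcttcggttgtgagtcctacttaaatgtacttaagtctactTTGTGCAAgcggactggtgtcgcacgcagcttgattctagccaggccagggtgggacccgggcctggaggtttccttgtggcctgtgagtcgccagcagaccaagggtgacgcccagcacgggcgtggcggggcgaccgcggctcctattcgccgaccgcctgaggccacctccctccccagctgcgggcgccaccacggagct
Chd1l: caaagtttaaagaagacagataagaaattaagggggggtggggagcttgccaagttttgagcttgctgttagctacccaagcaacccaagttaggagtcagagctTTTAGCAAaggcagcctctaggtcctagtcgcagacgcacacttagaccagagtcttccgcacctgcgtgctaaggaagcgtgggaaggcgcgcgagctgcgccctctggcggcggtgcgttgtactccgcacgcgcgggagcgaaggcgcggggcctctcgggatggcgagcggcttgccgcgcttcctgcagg
Counted from each start, the match ran from base -243 to -236 in Fam167b, from -154 to -147 in Cyp20a1 and from -145 to -138 in Chd1l. From the mm9 starts, the gained site lay from -46 to 98 in Fam167b, from -321 to -177 in Cyp20a1 and from -158 to -14 in Chd1l, so the marked letters fell outside the site in the first 2 genes. The C/EBP letters were less frequent in promoters near gained sites than in those near constant ones. With a start within 1 kb of a gained site, 53 of 662 promoters held them (8.01%), while they stood in 269 of 1744 promoters near sites of all 3 files (15.4%), in 128 of 1781 near Nwt-only sites (7.19%) and in 10.8% of all 22862 promoters. For the PU.1 letters the shares were 4.08% near gained sites, 3.38% near constant sites and 3.32% of all promoters, and for the AP-1 letters 4.98%, 6.02% and 7.98%. The composite stood in 3 promoters near gained sites (0.453%), in 1.66% of those near constant sites and in 0.954% of all promoters. The NF-kB motif stood in 0.453%, 0.745% and 0.376% of the same 3 sets. No test was run on these shares.

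The gained sites lay low in the deposited list of Nmu peaks. Their median position was 76.3% of the way down, 776 of them (11.9%) were in its first 50%, and 9 were in its first 10%. The 27384 sites of the Nmu file that both controls shared had a median position of 30.8%, with 71.6% in the first 50%. HOMER, the peak caller, usually writes peaks from most to fewest tags, but the headers do not state the order, and the deposited score is 1 for every peak. Nwt-only sites lay as far down their own list (median 76.2% of 24791 sites), and so did the 4283 sites that both controls had and Nmu lacked (76.3% of the way down the pCDH list). By the same rule, 35.7% of the Nwt peaks and 9.33% of the pCDH peaks were found in that file alone.

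**Figure D1:**
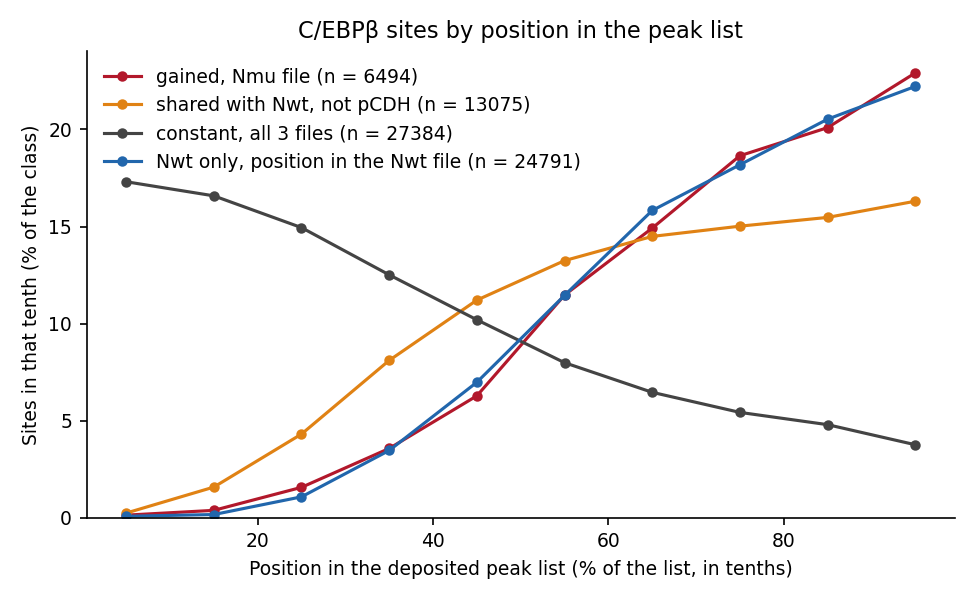
Percent of each class of C/EBPβ sites (vertical axis) in each 10% step of the deposited peak list it came from (horizontal axis). The line of gained sites climbs to 22.9% in the last step, close to that of Nwt-only sites, while constant sites are most frequent in the first step (17.3%).

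Many gained sites stood close to a control peak. The nearest Nwt or pCDH peak was 1726 bp away at the median, 877 gained sites had one within 200 bp, and 2551 within 1 kb. Just inside the rule, 268 sites had the edge of a control peak 0 to 50 bp away. Just outside it, 654 Nmu peaks were left out for an overlap of 1 to 50 bp, 159 of them for 20 bp or less, while the median overlap of all the peaks left out was 132 bp. The nearest control peak was from Nwt cells for 4406 gained sites (67.8%) and from pCDH cells for 2031 (31.3%). At the other end, 1233 gained sites had no control peak within 10 kb.

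The H3K4me2 mark followed this distance. In Nmu cells it covered 67.5% of gained sites that had a control peak within 50 bp and 66.5% of those with one over 200 bp and up to 1 kb away. Its share was 40.7% at 1 to 5 kb, 25.2% at 5 to 10 kb, 20.8% at 10 to 50 kb and 11.8% of the 195 sites beyond 50 kb. PU.1 peaks in Nmu cells covered 24.6% of gained sites in the nearest bin and 12.3% in the farthest one. The range over distance was thus narrower for PU.1 than for H3K4me2. C/EBPα covered 4.48% of sites in the nearest bin and 0.513% in the farthest.

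**Figure D2:**
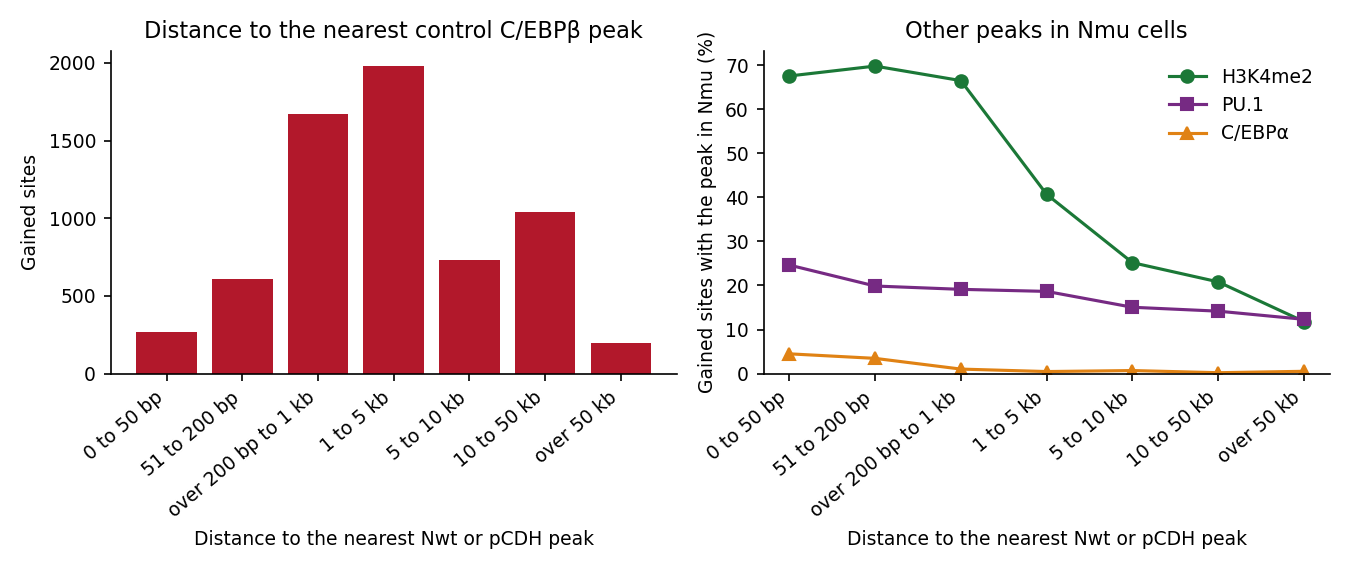
Left, number of gained C/EBPβ sites (vertical axis) by distance to the nearest control C/EBPβ peak (horizontal axis). Right, percent of the gained sites at each distance with an H3K4me2, PU.1 or C/EBPα peak in Nmu cells; H3K4me2 covers 67.5% in the nearest bin and 11.8% in the farthest.

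The other antibodies, which the rule did not use, did not set Nmu cells apart at the gained sites. An H3K4me2 region covered 45.4% of them in Nmu cells (95% Wilson interval 44.2 to 46.6%), 44.3% in Nwt cells and 46.0% in pCDH cells. The 3 constructs lay within 2 percentage points, and the highest value was that of pCDH. PU.1 covered 17.8% in Nmu (16.9 to 18.8%), 15.3% in Nwt and 19.1% in pCDH cells. These shares followed the size of the PU.1 lists, with 64744 peaks in Nmu, 53835 in Nwt and 71846 in pCDH cells. C/EBPα covered 1.03% of gained sites in Nmu (0.813 to 1.31%), 4.23% in Nwt and 1.00% in pCDH cells, and the Nwt file also held the most C/EBPα peaks (19732, against 9117 in Nmu and 11645 in pCDH cells). Intervals here cover counting error only.

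At constant sites every one of these shares was higher. H3K4me2 covered 55.6% of them in Nmu, 52.0% in Nwt and 54.2% in pCDH cells, PU.1 24.3%, 20.5% and 25.0%, and C/EBPα 29.6%, 56.2% and 38.4%. The gap between gained and constant sites was widest for C/EBPα. Nwt-only C/EBPβ sites had less of each mark than gained sites, with H3K4me2 at 33.2% in Nmu, 32.2% in Nwt and 34.0% in pCDH cells.

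**Figure D3:**
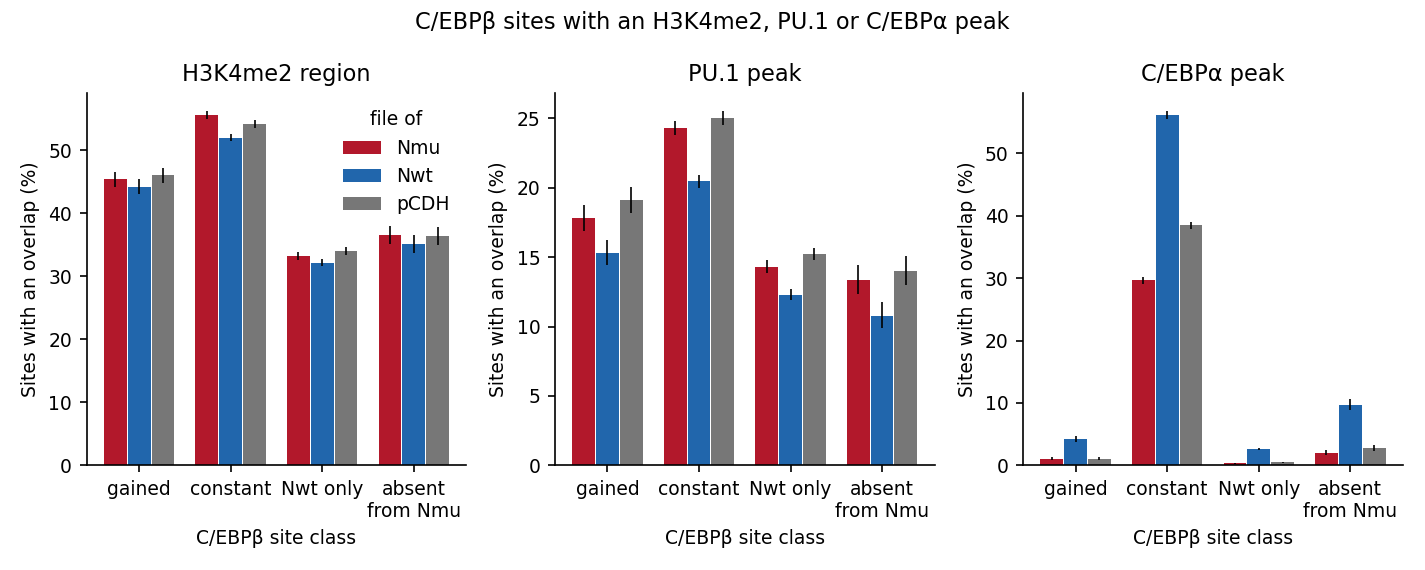
Percent of C/EBPβ sites (vertical axes) that overlap an H3K4me2 region, a PU.1 peak or a C/EBPα peak, by site class (horizontal axes; "absent from Nmu" are sites of both controls) and by the construct of the overlapping file; error bars are 95% Wilson intervals. Gained sites had H3K4me2 at 45.4% in Nmu, 44.3% in Nwt and 46.0% in pCDH cells, between constant and Nwt-only sites.

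Site by site, most gained sites kept one state of H3K4me2 in all constructs. The mark was present in all 3 at 2374 gained sites (36.6%) and in none at 3011 (46.4%). It was present in Nmu cells alone at 233 sites (3.59%) and in both controls but not in Nmu cells at 240 sites (3.70%), so a mark in Nmu cells alone was about as frequent as one missing from Nmu cells alone. PU.1 was present in all 3 at 824 gained sites (12.7%), in Nmu cells alone at 136 (2.09%) and in pCDH cells alone at 198 (3.05%), and was absent from all 3 at 5012 (77.2%). In Nmu cells 764 gained sites had both H3K4me2 and PU.1 (11.8%) and 3154 had neither (48.6%). Only 13 gained sites had H3K4me2 and PU.1 both in Nmu cells alone.

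Gained sites were more often at promoters than the other classes. A gene start lay within 1 kb of 1002 of them (15.4%), while this held for 10.6% of constant and 11.8% of Nwt-only sites. Another 2932 gained sites (45.1%) were over 20 kb from any start. In Nmu cells H3K4me2 covered 69.7% of the gained sites within 1 kb of a start and 41.0% of those farther away. At constant sites the same shares were 73.7% and 53.5%, so the classes differed less near starts than away from them. PU.1 went the other way, with 13.1% of gained sites within 1 kb of a start and 18.7% of the others.

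Genes were then taken by their starts within 20 kb. This linked 3562 gained sites to 4523 gene symbols, of which 2966 were tested, having reached 1 RPKM in 2 or more of the 6 BV2 libraries. The other 1557 were too low to test. RNA differences are on the log2(RPKM + 1) scale, Nmu against the mean of Nwt and pCDH, fitted with limma over all 10352 genes with a time term and adjusted by Benjamini-Hochberg over all of them. Each construct had 1 library per time, so the 2 residual degrees of freedom hold the differences between constructs that changed with time. To these limma added 2.89 prior degrees of freedom drawn from all genes. The p-values thus measure a spread between these libraries, which may be technical, and not one between replicates of the same time. In RNA from whole cultures, fewer cells of a type and less RNA per cell cannot be told apart.

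Genes near gained sites were called about as often as genes in general. At an adjusted p under 0.05, 9 of the 2966 genes were higher in Nmu cells, with 0.29% of all genes tested called higher, and 3 were lower, with 0.0676% called lower. At an unadjusted p under 0.05 the counts were 297 higher, with 9.6% of all genes, and 343 lower, with 10.6%. By size, 29 of 2873 genes were at least 2-fold higher in each of the 4 pairs of Nmu with a control of the same time (1.01%, with 0.763% of all 9963 genes), and 20 were at least 2-fold lower in each pair (0.696%, with 0.492%). Some genes reached the 1 RPKM of the filter in 1 group only and so had to differ: 2 of the 9 and 5 of the 29 higher genes reached it only in Nmu libraries, and all 3 and 6 of the 20 lower genes only in controls. This size rule used RPKM + 1 and transcripts of 200 bases or more. The median log2 difference was -0.01 near gained sites and -0.00 over all genes. Against either control alone limma called 2 genes higher, with 0.0869% of all genes against pCDH and 0.0676% against Nwt, and 0 lower, with 0% of all genes. At an unadjusted p under 0.05 the counts were 238 and 268 of 2966 against pCDH, and 240 and 268 against Nwt. No count over all genes is given beside these unadjusted counts, so they have no background. The limma counts depended on each library, and were larger with any 1 library left out, both near gained sites and over all genes. Those fits keep 1 library in a construct, so their counts are not given.

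Other site classes gave similar shares. Of genes near constant sites 0.970% were higher and 0.622% lower by size, near Nwt-only sites 0.805% and 0.492%, and near sites that both controls had and Nmu lacked 1.08% and 0.617%. Genes with no gained site within 20 kb stood at 0.663% higher and 0.409% lower. The classes share genes, since 76.3% of the tested genes near a gained site were also near a constant site and 75.6% near an Nwt-only site. Of the 680 genes near a gained but no constant site, 3 were higher (0.441%) and 4 lower (0.588%) by size. With the nearest gained site within 1 kb of the start, 3 of 884 genes were higher (0.339%) and 7 lower (0.792%), and at 1 to 5 kb 9 of 608 were higher (1.48%) and 6 lower (0.987%).

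**Figure D4:**
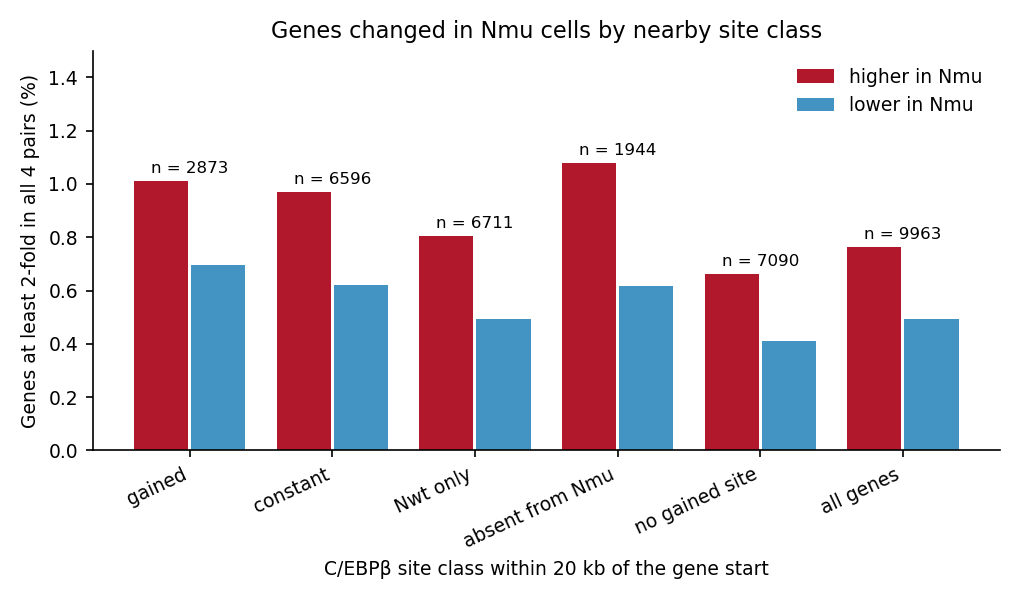
Percent of tested genes (vertical axis) that were at least 2-fold higher or lower in Nmu cells in all 4 pairs with a control of the same time, by the class of C/EBPβ site within 20 kb of the start (horizontal axis); the number of genes stands above each pair of bars. Genes near gained sites (1.01% higher, 0.696% lower) stand close to those near constant sites and near sites absent from Nmu cells.

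Among the 9 genes that passed limma as higher, paired immunoglobulin-like receptors had the largest differences. Pilrb1, an activating receptor of myeloid cells, had 20.9 and 40.5 RPKM in Nmu libraries, 0.75 and 1.95 in Nwt and 0.80 and 1.97 in pCDH libraries (24 h, then the second time). Both Nmu libraries lay far above all 4 controls, and the log2 difference was 3.72 ± 0.14 (SE, limma adjusted p = 0.0115). The gained site at chr5:138300277-138300421, 1.07 kb upstream of its start, had H3K4me2 in Nmu cells alone and PU.1 in all 3. This site stood at 90.2% of the list, and the nearest control C/EBPβ peak was 18905 bp away. Its paralog Pilrb2 had 10.4 and 19.6 RPKM in Nmu, 0.25 and 0.88 in Nwt and 0.35 and 0.95 in pCDH libraries, and rose by 3.28 ± 0.15 on the log2 scale (SE, limma adjusted p = 0.0157). It was below 1 RPKM in every control and so entered the test through the Nmu libraries alone. Its own nearest gained site lay 12.0 kb upstream, 237 bp from a control peak and at 76.0% of the list. How the counting treated reads that match both of these near-identical genes is not stated, so the split between them is uncertain.

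Chemokine and interleukin genes followed. Ccl4, a chemokine that draws in monocytes and lymphocytes, had 58.8 and 59.7 RPKM in Nmu, 6.49 and 13.6 in Nwt and 6.45 and 9.59 in pCDH libraries. The Nmu libraries were higher than every control, by 2.64 ± 0.23 on the log2 scale (SE, limma adjusted p = 0.042). Its neighbour Ccl3 had 208 and 160 RPKM in Nmu, 30.6 and 45.5 in Nwt and 26.0 and 41.5 in pCDH libraries, also without overlap, but did not pass (log2 difference 2.35 ± 0.26, SE, limma adjusted p = 0.0646). Both genes share 1 gained site, chr11:83471069-83471213, which had no H3K4me2 in any construct and PU.1 in pCDH cells alone. Il1b, which encodes the cytokine interleukin-1β, had 9.73 and 10.1 RPKM in Nmu, 1.73 and 1.38 in Nwt and 1.50 and 1.90 in pCDH libraries. Again no control reached the Nmu values, and the log2 difference was 2.06 ± 0.16 (SE, limma adjusted p = 0.0288). The gained site 9.12 kb upstream of Il1b stood 82 bp from a control peak, at 95.8% of the list, with H3K4me2 in all 3 constructs.

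A pair of regulators of Toll-like receptor and NF-kB signalling also rose. Tnip1, which binds A20 and restrains NF-kB, had 16.4 and 15.1 RPKM in Nmu, 3.47 and 2.48 in Nwt and 3.26 and 2.72 in pCDH libraries. It rose by 2.08 ± 0.14 on the log2 scale (SE, limma adjusted p = 0.027). Its gained site, 6.99 kb downstream of the start, was 46 bp from a control peak. Irak3, a brake on Toll-like receptor signalling, had 6.66 and 5.50 RPKM in Nmu, 0.54 and 0.91 in Nwt and 0.55 and 0.77 in pCDH libraries. Its rise was 2.07 ± 0.18 (SE, limma adjusted p = 0.041), and it too entered the test through the Nmu libraries alone. Its gained site lay 18.4 kb downstream of the start with none of the other marks in any construct.

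Slc11a2, an iron transporter, had 24.8 and 17.7 RPKM in Nmu, 4.30 and 4.02 in Nwt and 4.28 and 3.83 in pCDH libraries. It rose by 2.11 ± 0.16 (log2, SE, limma adjusted p = 0.0288) and had 3 gained sites, at 1.18, 1.72 and 6.32 kb downstream of its start. Tmem176b, a membrane protein of myeloid cells, had 64.8 and 78.4 RPKM in Nmu, 17.1 and 17.7 in Nwt and 18.3 and 15.8 in pCDH libraries, a rise of 1.99 ± 0.16 (log2, SE, limma adjusted p = 0.0363). The site 1.51 kb upstream of it, chr6:48792806-48792950, had H3K4me2 in Nmu cells alone and also lies 1.22 kb downstream of the start of the neighbouring Tmem176a. This site stood at 80.4% of the list. Fyb, an adaptor protein of immune cell adhesion, had 29.4 and 23.3 RPKM in Nmu, 5.45 and 6.84 in Nwt and 5.80 and 6.50 in pCDH libraries. It rose by 1.93 ± 0.18 (log2, SE, limma adjusted p = 0.0448). Its gained site at chr15:6519875-6520019 stood high in the list, 18.0% of the way down, with a control peak 621 bp away, H3K4me2 in all 3 constructs and C/EBPα in Nwt cells.

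Among the 3 genes that passed limma as lower, Nr4a1 had the gained site nearest to its start, the one over the promoter shown above. This nuclear receptor, which restrains inflammation in macrophages, had 0.24 and 0.68 RPKM in Nmu, 2.28 and 3.52 in Nwt and 2.77 and 3.96 in pCDH libraries. It fell by 1.50 ± 0.14 on the log2 scale (SE, limma adjusted p = 0.0437), with both Nmu libraries below all controls. The site, chr15:101097179-101097323, had H3K4me2 in every construct, no PU.1 and no C/EBPα. It stood 641 bp from a control peak, at 89.4% of the list. Gpd1, glycerol-3-phosphate dehydrogenase of the cytosol, had 0.11 and 0.27 RPKM in Nmu, 3.39 and 2.99 in Nwt and 4.18 and 3.04 in pCDH libraries, and fell by 1.89 ± 0.17 (log2, SE, limma adjusted p = 0.0448). Its 3 gained sites, the nearest 2.18 kb upstream, all had H3K4me2 in every construct. They stood 175, 123 and 701 bp from a control peak, at 81.5%, 74.9% and 95.5% of the list. St8sia4, a polysialyltransferase, had 0.23 and 0.53 RPKM in Nmu, 4.69 and 4.35 in Nwt and 4.36 and 3.78 in pCDH libraries. It fell by 1.94 ± 0.17 (log2, SE, limma adjusted p = 0.042), and 1 of its 2 gained sites, 6.63 kb upstream, stood at 35.4% of the list. All 3 genes were under 1 RPKM in Nmu cells, so they entered the test through the controls alone, and the added pseudocount of 1 understates their change.

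**Figure D5:**
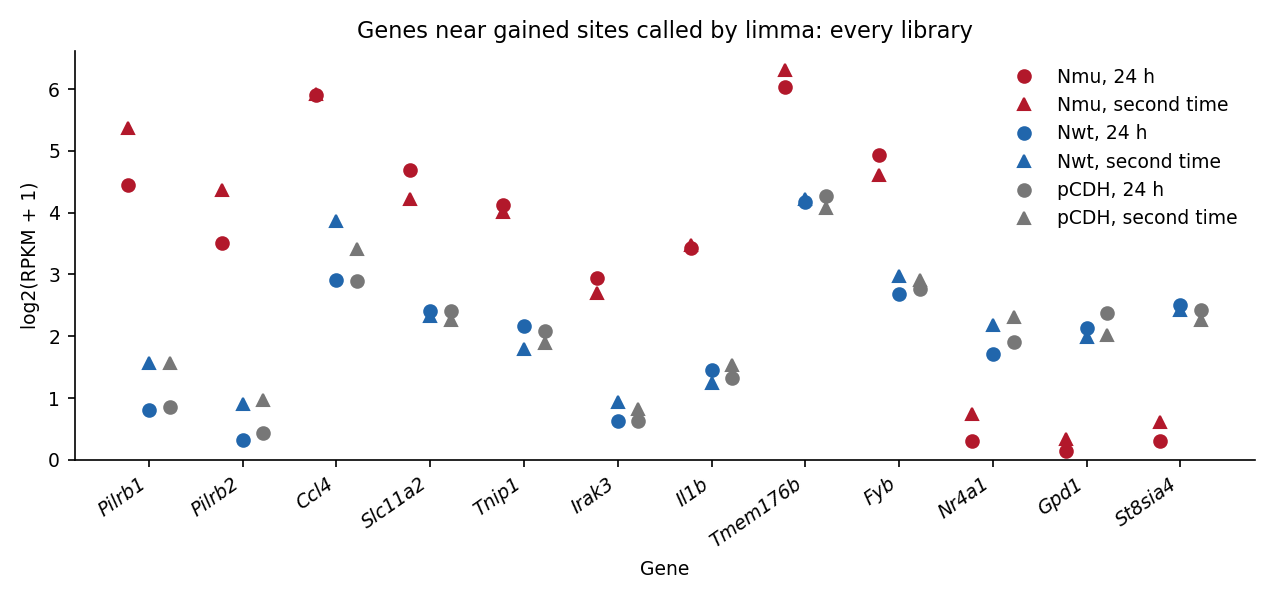
Level of each gene near a gained site that passed limma at an adjusted p of 0.05 (horizontal axis), as log2(RPKM + 1) in every BV2 library (vertical axis); circles are 24 h and triangles the second time. In all 12 genes both Nmu libraries lie on one side of the 4 control libraries, as with Pilrb1 at 20.9 and 40.5 RPKM in Nmu and at most 1.97 RPKM in the controls.

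Other genes were 2-fold higher in every pair without passing the adjusted p. Irg1, which makes itaconate in activated macrophages, had the largest log2 difference near a gained site. It had 25.7 and 68.0 RPKM in Nmu, 2.88 and 1.62 in Nwt and 2.27 and 1.33 in pCDH libraries (log2 difference 3.85 ± 0.45, SE, limma adjusted p = 0.0666). Its gained site 12.1 kb downstream of the start was 25 bp from a control peak, stood at 22.2% of the list and had H3K4me2 and PU.1 in all 3 constructs. Cd52, a surface glycoprotein of leukocytes, was at 30.2 and 105 RPKM in Nmu, 9.74 and 6.64 in Nwt and 9.55 and 6.44 in pCDH libraries (2.69 ± 0.53, SE, limma adjusted p = 0.116). Gdf15, a stress-induced cytokine, was at 60.4 and 19.5 RPKM in Nmu, 6.82 and 5.34 in Nwt and 5.75 and 3.97 in pCDH libraries (2.48 ± 0.31, SE, limma adjusted p = 0.069). The Nmu libraries differed from each other by more than the controls did in all 3 genes. Gdf15 shares a gained site with Lrrc25, whose log2 difference was 2.11. Aoah, an enzyme that inactivates lipopolysaccharide, and the kinase gene Pim2 had log2 differences of 2.03 and 1.95. Aoah was below 1 RPKM in every control and so entered the test through the Nmu libraries alone.

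On the lower side, Ankrd37, a gene known to respond to hypoxia, had 0.16 and 0.21 RPKM in Nmu, 25.7 and 6.25 in Nwt and 20.1 and 6.37 in pCDH libraries (log2 difference -3.47 ± 0.42, SE, limma adjusted p = 0.0678). With both Nmu libraries under 1 RPKM, Ankrd37 entered the test through the controls alone. Atp6v0d2, a proton pump subunit of osteoclasts and macrophages, had 3.24 and 2.80 RPKM in Nmu, 46.6 and 17.2 in Nwt and 41.2 and 14.2 in pCDH libraries (-2.77 ± 0.32, SE, limma adjusted p = 0.0662). Neither gene passed, and the controls differed between times by more than 2-fold. The gained site chr4:19849647-19849791 covers the start of Atp6v0d2 and had H3K4me2 in both controls but not in Nmu cells. Fabp4, a fatty acid carrier, had 6.88 and 12.4 RPKM in Nmu, 91.5 and 34.6 in Nwt and 78.7 and 30.2 in pCDH libraries (-2.38 ± 0.50, SE, limma adjusted p = 0.123). A gained site with no control peak for 38557 bp, chr3:10208578-10208722, lies just upstream of its start and had H3K4me2 in Nwt cells alone. That site stood at 82.1% of the list. The coagulation factor genes F7 and F10 share 1 gained site and had log2 differences of -1.85 and -1.66. Hspb7, Emp1, Mmp14, Rgcc, Kcnn4 and Nat6 lay between -2.41 and -1.66. Hspb7, too, was under 1 RPKM in both Nmu libraries and entered the test through the controls alone.

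The copper transporter gene Slc31a2, with a gained site over its start, had 24.8 and 17.1 RPKM in Nmu, 10.6 and 6.21 in Nwt and 8.90 and 5.46 in pCDH libraries (log2 difference 1.34 ± 0.14, SE, limma adjusted p = 0.0575). That site stood 569 bp from a control peak, at 52.3% of the list. Rgcc, a regulator of the cell cycle, had 2.17 and 2.46 RPKM in Nmu, 13.5 and 7.31 in Nwt and 10.7 and 8.58 in pCDH libraries (-1.70 ± 0.23, SE, limma adjusted p = 0.0755). The groups did not overlap in either gene, although neither passed the adjusted p. Among genes with a gained site within 1 kb of the start, Nr4a1 was the 1 called by limma.

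Where H3K4me2 at a gained site was itself found in Nmu cells alone, the nearby genes were few and included Pilrb1, Pilrb2, Tmem176a and Tmem176b. They are the 4 of 120 tested genes near these 233 sites that were 2-fold higher in every pair (3.33%), and none of the 120 was lower. These 4 genes come from 2 sites, so they are not independent. Near the 240 sites with H3K4me2 in both controls but not in Nmu cells, 2 of 158 genes were higher (C3ar1 and Slc15a3) and 3 lower, Atp6v0d2 among them. At constant C/EBPβ sites with H3K4me2 in Nmu cells alone, 12 of 540 genes were higher (2.22%) and 3 lower (0.556%). At C/EBPβ sites of Nmu and Nwt but not pCDH with the same mark pattern, 3 of 248 were higher (1.21%) and none lower. Over all genes the shares were 0.763% higher and 0.492% lower. At 2374 gained sites with H3K4me2 in all 3 constructs the shares were 0.923% higher and 0.725% lower. The difference between these shares was not tested, and Tmem176a and Slc15a3 are named after their values were seen.

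Of the factors themselves, Cebpb had 149 and 52.4 RPKM in Nmu, 52.4 and 32.9 in Nwt and 51.6 and 37.1 in pCDH libraries (log2 difference 1.04 ± 0.25, SE, limma adjusted p = 0.145). Each Nmu library stood above the controls of its own time, by more at 24 h. Across times the groups overlapped, since Nmu at the second time was level with the controls at 24 h. Cebpd, a related factor induced in inflammation, had 10.4 and 4.90 RPKM in Nmu, 0.51 and 0.73 in Nwt and 0.64 and 0.70 in pCDH libraries (2.32 ± 0.28, SE, limma adjusted p = 0.0674). Spi1 had 47.8 and 70.2 RPKM in Nmu, 25.8 and 30.3 in Nwt and 26.9 and 28.7 in pCDH libraries (1.03 ± 0.16, SE, limma adjusted p = 0.0943). Cebpa had 2.68 and 4.13 RPKM in Nmu, 5.74 and 5.22 in Nwt and 5.64 and 5.88 in pCDH libraries (-0.61 ± 0.18, SE, limma adjusted p = 0.185). None of the 4 passed, and Cebpd was tested only because of its Nmu libraries, since every control was under 1 RPKM. A gained site lay 9.13 kb downstream of the Cebpb start and another 2.17 kb downstream of the Cebpa start, both with H3K4me2 in all 3 constructs, and none within 20 kb of Cebpd or Spi1.

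Gene lists chosen for myeloid cells are described by their counts. Of 21 tested cytokines and mediators, 7 were near a gained site. Ccl4 and Il1b rose (5 of the 21 in all did, and 0.29% of all genes), none fell, and the median log2 difference of the 7 was 1.84 (1.00 over the whole list). Saa3, an acute-phase protein, had 214 and 38.7 RPKM in Nmu, 27.6 and 29.8 in Nwt and 17.6 and 26.5 in pCDH libraries (log2 difference 1.84 ± 0.65, SE, limma adjusted p = 0.22). Most of its difference lay in the Nmu library of 24 h. Of 20 NF-kB pathway and feedback genes, 6 were near gained sites, where Tnip1 and Irak3 rose, of 4 that rose in the list, and none fell. Over all genes 0.29% were called higher, and Irak3 passed the filter through the Nmu libraries alone. Cd14, the co-receptor for lipopolysaccharide, had a gained site 0.016 kb from its start and 35.1 and 29.0 RPKM in Nmu, 7.27 and 18.7 in Nwt and 6.87 and 16.7 in pCDH libraries. Its groups did not overlap, but the controls differed between times and the gene did not pass (1.42 ± 0.36, SE, limma adjusted p = 0.151). Bcl3, a nuclear partner of NF-kB, had 2 gained sites and a log2 difference of 1.23 ± 0.18 (SE, limma adjusted p = 0.0843). With every control under 1 RPKM, Bcl3 entered the test through the Nmu libraries alone. Of 28 phagocytic and lectin receptors 11 were near gained sites, with Pilrb1 and Pilrb2 called higher, of 7 called higher in the list. The share over all genes was again 0.29%, and Pilrb2 passed the filter through the Nmu libraries alone. C3ar1, the receptor of the complement fragment C3a, had 25.8 and 27.1 RPKM in Nmu, 9.48 and 12.5 in Nwt and 10.4 and 10.8 in pCDH libraries (log2 difference 1.23 ± 0.15, SE, limma adjusted p = 0.069). Both Nmu libraries were above the controls. Mrc1, the mannose receptor, with a gained site 0.192 kb from its start, stood at -0.70 ± 0.29 (SE, limma adjusted p = 0.271), with Nmu at the second time close to the controls of that time.

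The other lists had few or no calls near gained sites. All 16 C/EBP, ATF and AP-1 genes near a gained site missed the limma threshold, with 5 higher and 1 lower at an unadjusted p under 0.05, where 9.6% of all genes were higher and 10.6% lower (the same background holds for the unadjusted counts below). The stress factors Ddit3 and Atf3 had log2 differences of 1.50 and 1.29 with limma adjusted p of 0.261 and 0.11. Most of the Ddit3 difference lay at 24 h (146 RPKM in Nmu, 22.8 in Nwt, 18.0 in pCDH). At the second time it had 5.5 RPKM in Nmu, 4.5 in Nwt and 4.8 in pCDH libraries. Of 12 myeloid transcription factors near a gained site Nr4a1 fell and none rose, and the median was -0.49 (-0.43 over the list). Over all genes 0.0676% were called lower, and Nr4a1 passed the filter through the controls alone. Pparg, a nuclear receptor of lipid metabolism, had 0.083 and 0.211 RPKM in Nmu, 2.98 and 0.493 in Nwt and 3.27 and 0.77 in pCDH libraries (log2 difference -1.18 ± 0.37, SE, limma adjusted p = 0.193). With both Nmu libraries under 1 RPKM, Pparg entered the test through the controls alone. In the lipid and cholesterol list, Gpd1 fell among 11 genes near gained sites (median -0.43), with Fabp4 and Scd2 at -2.38 and -1.47 without passing. The share called lower over all genes was again 0.0676%, and Gpd1 passed the filter through the controls alone. None of the 11 hypoxia and glycolysis genes near a gained site passed limma (1 higher and 6 lower at an unadjusted p under 0.05), with a median of -0.60 near gained sites and over the list. Ldha, lactate dehydrogenase A, had 124 and 305 RPKM in Nmu, 379 and 391 in Nwt and 408 and 389 in pCDH libraries, below every control but by more at 24 h, and did not pass (limma adjusted p = 0.2). None of the 5 oxidative stress genes passed limma either (3 higher at an unadjusted p under 0.05), and Mt2, a metallothionein, was 2-fold higher in every pair (log2 difference 1.32).

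The primary cells had 1 library per genotype and cell type, so their differences have no replicate check. In microglia, 4 of 2874 genes near gained sites were at least 2-fold higher in the mu library than in the wt library (0.139%, with 0.0879% of 10244 genes in all), and 10 were lower (0.348%, with 0.322%). In BMDM, 22 were higher (0.765%, with 0.683%) and 11 lower (0.383%, with 0.342%). The 29 genes that were higher in every pair in BV2 cells included none that was 2-fold higher in the mu library of either primary cell. On the RPKM + 1 scale used here, a gene under 1 RPKM in both libraries of a cell type cannot reach 2-fold. Pilrb1 (0.343 RPKM in Microglia_mu, 0.49 in Microglia_wt) and Hspb7 (0 RPKM in every primary library) are examples. With so few of all genes 2-fold higher, a count of 0 among 29 cannot show whether the BV2 differences recur in primary cells. Of the 29, Ifitm6 (named after its values were seen) was 2-fold lower in Microglia_mu and Il1b in BMDM_mu, and of the 20 genes lower in BV2 cells 2 were 2-fold lower in BMDM_mu and none in Microglia_mu.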

How the data were processed

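The C/EBPβ, C/EBPα, PU.1 and H3K4me2 peak lists were made by the authors with HOMER on mm9, 1 library at a time. Per the file headers, a peak was at least 4-fold over an input and over the local signal at a p-value of 1e-04 or less, with a false discovery rate of 0.001 for the factors, and the input carries the name of another macrophage source. The deposited score of each peak is 1 throughout and ranks nothing. The submitters' processing notes name Bowtie, STAR 2.0.3e, HOMER and edgeR, without giving their order. The authors deposited RNA as RPKM per RefSeq transcript. Low RPKM values times length were whole reads within 0.1 reads for 100% of values, so that the implied depth was 10.8 to 14.0 M reads in BV2 libraries and 28.8 to 47.8 M reads in those of primary cells.

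From these files, overlaps of 1 bp or more were counted with Python 3.11.15 and pandas 2.3.3. Starts within 20 kb of a peak centre linked genes to sites. The transcript with the highest mean RPKM stood for each of 23953 symbols, and log2(RPKM + 1) entered a limma 3.58.1 model run in R 4.3.3. Its terms were construct and time, so that libraries of the same time were blocked. No count model was used. Promoters are RefSeq sequences matched by symbol, where a symbol has 1 promoter.

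Genes were named by rule: those past an adjusted p of 0.05 near a gained site, the 15 largest by size rule in each direction, the 10 with the most gained sites, the 4 factors, and examples from 8 lists, plus Slc31a2, which was singled out after its values were seen because a gained site covers its start. A gene that the rule names is not reported here. The 3 promoters with the C/EBP letters were likewise chosen after the values were seen. Members and lists were chosen with earlier results of these data known. Alternatives covered the overlap and distance limits, the control list, the pseudocount, the filter, the normalization, the time term and leaving out each library.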

Additional observations from a re-analysis of the deposited data

How the results depend on the processing

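The number of gained sites was 7955 when a control peak had to cover at least 50% of the Nmu peak and 5617 when one within 200 bp counted as shared, but 3943 at 1 kb and 19569 against pCDH alone (7434 against Nwt alone). The PU.1 share was 24.7% with edges within 200 bp counted, 16.5% at sites with no control peak within 1 kb and 22.7% at sites in the first 50% of the list, an alternative chosen after seeing the data, here and for the other values of that setting. The C/EBPα share was 1.91%, 0.431% and 5.03% in those settings and 0.605% with no control peak within 200 bp, and the H3K4me2 share 50.3%, 31.1%, 58.2% and 41.7%.

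Called genes near gained sites were 18 higher with starts within 50 kb (of 4983 tested), where 30 of all 10352 genes were. With a pseudocount of 0.1, 8 of 2966 were lower, as were 25 of all genes. With a pseudocount of 5 or quantile normalization 0 were lower, and 0 and 1 of all genes. Against either control alone limma called 2 higher and 0 lower. With no filter the fit covered 4523 genes near gained sites and 23953 in all, and limma called 0 and 0 in both. At an unadjusted p under 0.05, 333 and 330 of the 4523 were higher and lower. For the other zero counts of lower genes, an unadjusted p under 0.05 gave 317 (pseudocount 5), 327 (quantile) and 268 (either control) of 2966. No counts over all genes are given beside these unadjusted counts, so they have no background. The size rule gave 45 higher at 50 kb, 48 lower with a pseudocount of 0.1, and 16 higher and 3 lower with a pseudocount of 5. Over all genes it gave 76, 128, 38 and 7 in the same order. Sites with no control peak within 1 kb gave 1 lower by limma and 8 lower by size, and sites in the first 50% of the list 1 and 1 by limma and 5 higher and 9 lower by size. These settings left 1768 and 433 tested genes near sites. Over all genes the counts stayed at 30 higher and 7 lower by limma and 76 and 49 by size. The median log2 difference was -0.0020 at 50 kb, -0.035 for the nearest start alone, 0.0 with no filter and -0.0014 in the first 50% of the list. Leaving out each library in turn gave 21 to 571 higher and 12 to 637 lower by limma, 29 to 122 higher and 20 to 190 lower by size, and medians of -0.0146 to 0.0033. Where an arm keeps 1 library, that library is assumed to vary like the others.

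Of 594 values for named genes under alternatives, 410 kept direction and side of the threshold, 46 lost the call, 125 gained one and 13 changed sign, all of genes near 0: Cyth4 (-0.045 against pCDH, -0.029 with quantile normalization), Malat1 (-0.015 with quantile normalization), Tnfaip8l2 (0.051 against Nwt), and, over single libraries left out, Arrb2 (-0.046 to 0.50), Cyth4 (-0.50 to 0.54), Malat1 (-0.085 to 0.24) and Tnfaip8l2 (-0.40 to 0.37). The causes were not tested. The libraries of a time were blocked in the main fit. With no replicate block, limma called 9 higher and 2 lower near gained sites, and 21 and 3 over all genes. There was 1 chromatin library per construct and 2 RNA libraries.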

Other observations

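Gained sites were spread along the genome. With centres up to 20 kb apart joined, they formed 5472 stretches, 4644 of a single site and 8 of 5 sites, the most in any stretch. These included stretches at Malat1 and Neat1, which encode abundant nuclear RNAs, at Abt1, at Zmynd8, and at Ckb and Bag5. The genes with the most gained sites within 20 kb did not pass limma. Ctsk, the collagen-degrading protease cathepsin K, had 5 gained sites, with 1243 and 1418 RPKM in Nmu, 991 and 940 RPKM in Nwt and 913 and 886 RPKM in pCDH libraries (log2 difference 0.51 ± 0.15, SE, limma adjusted p = 0.178). Its Nmu libraries lay above all controls. Tnfaip8l2, a negative regulator of immune signalling, also had 5, with 18.3 and 23.9 RPKM in Nmu, 22.3 and 18.2 RPKM in Nwt and 26.6 and 18.3 RPKM in pCDH libraries, and the groups overlapped (-0.01 ± 0.22, SE, limma adjusted p = 0.983). Malat1, Ppp1r14b, Arrb2 and Cyth4 had 4 each, with log2 differences of 0.08, 0.31, 0.23 and 0.02. Hist2h2aa1 and Hist2h2aa2, at 0.85 and 0.84, are near-identical histone genes whose reads may be split. Abt1 and C230035I16Rik were too low to test.

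The gained sites that stood highest in the Nmu list were mostly beside a control peak. Of the first 10, 9 had a control peak within 185 bp, among them a site 5.23 kb downstream of the start of Id1, a regulator of differentiation, at 1.26% of the list. The exception is chr2:129421446-129421590, 2.59 kb downstream of the start of Sirpa, a receptor for CD47 on phagocytes, with the nearest control peak at 3540 bp. H3K4me2 and PU.1 were present there in all 3 constructs, and C/EBPα in Nwt cells. Sirpa had 189 and 162 RPKM in Nmu, 141 and 99.5 RPKM in Nwt and 136 and 96.8 RPKM in pCDH libraries (log2 difference 0.58 ± 0.15, SE, limma adjusted p = 0.152). Both Nmu libraries were above the controls. This site was chosen after its values were seen.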
